A study of Mus musculus with 2 samples.

Results

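The nuclear receptors other than the retinoic acid (RA) receptors RAR and RXR are described here in trunk tissue of mouse embryos that cannot make RA. The members are 39 genes of the nuclear receptor superfamily, taken by gene symbol. Besides the RAR and RXR genes, Hnf4a was left out, so no statement here covers it. The rule used no measured value but was set with earlier results of these data known. All 39 were found among the 24340 genes of the deposited RNA-seq table. The table compares dissected trunk of E8.5 Aldh1a2-/- embryos, which lack the enzyme that converts retinaldehyde to RA in trunk mesoderm, with trunk of wild-type embryos of the same stage, with 1 sample per genotype. The Aldh1a2-/- embryos carry the null allele in every cell and were obtained from heterozygous parents, mice of both kinds were kept on normal chow, and the head, heart and caudal tissue below the last formed somite were removed from both. The methods describe 2 trunks of each genotype and the labels 1 sample, so the deposited table gives no difference below a replicate check, no test was run, and every ratio describes these libraries.

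Nuclear receptors are transcription factors with a zinc finger domain that contacts DNA and, in most of them, a domain that binds a small fat-soluble molecule such as a steroid, thyroid hormone, vitamin D, a fatty acid, an oxysterol or a bile acid. Many bind paired copies of the hexamer AGGTCA as homodimers or as heterodimers with RXR, and the spacing and orientation of the copies decide which receptors fit. RA receptors use the same hexamer, so receptors without a known ligand, such as the COUP-TFs, can occupy RA response elements (RAREs) as well as elements of their own. In the early embryo the best known orphan receptors are the COUP-TFs of mesoderm and nervous system and the germ cell nuclear factor NR6A1, which shuts down the pluripotency gene Pou5f1 and is needed for trunk growth.

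The element that the study lists beside members is shown first because Nr2f1 and Nr2f2 are the only members listed as nearest gene to one. The letters are the same in both. The study's list covers only elements within peaks of histone marks that differed between the genotypes. Its further genes of the same chromosome domain were not searched here. The capitals mark the hexamers and the lower-case letter is the spacer of 1 base, the arrangement called DR1. Coordinates are mm10, and the strand of the printed letters relative to the chromosome was not checked here.
Nr2f1, chr13:78200425-78200437: GTGTCAaAGTTCA
Nr2f2, chr7:70361772-70361784: GTGTCAaAGTTCA
The first hexamer differs from AGGTCA at 2 positions and the second at 1. The study uses a looser consensus, which allows other letters at some positions. By that consensus it gives its highly conserved elements, these among them, no more than 1 mismatch. Of the 205 elements in the study's list, 2 have this sequence, those of Nr2f1 and Nr2f2. The element lies 674 bp upstream of the start of Nr2f1-201, the Nr2f1 transcript that begins nearest to it in the GENCODE annotation. It lies 1185 bp upstream of the start of Nr2f2-201 and, because Nr2f2-202 begins farther out, 4957 bp downstream of the start of that transcript, inside its first intron.

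**Figure D1:**
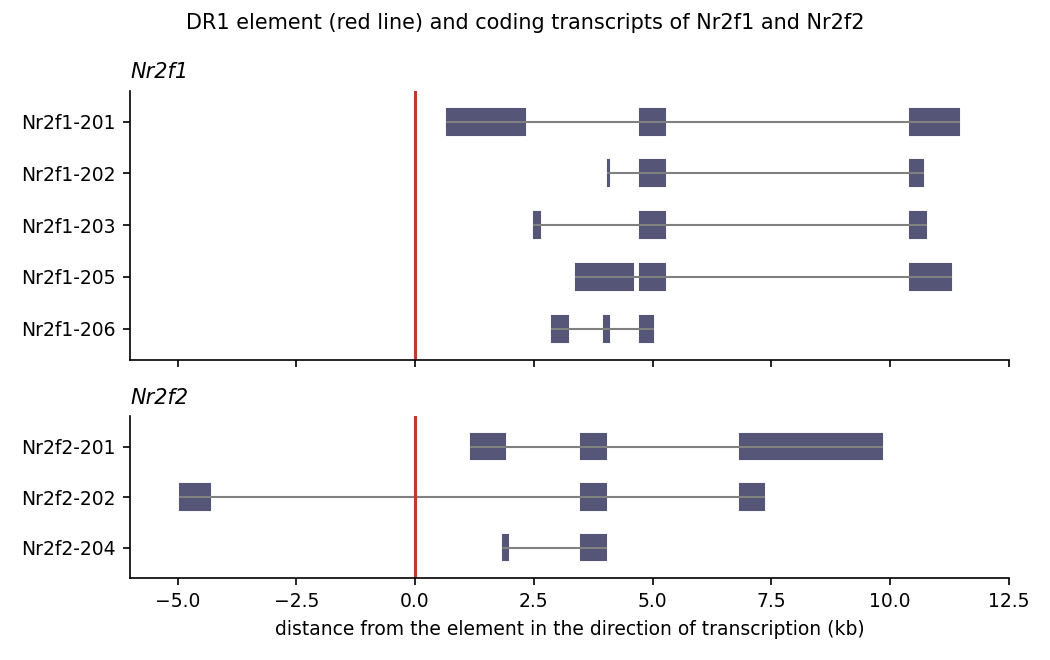
Coding transcripts of Nr2f1 (upper panel) and Nr2f2 (lower panel), with distance in kb from the shared DR1 element (red line at 0) in the direction of transcription, boxes for exons and lines for introns. The element is upstream of all drawn Nr2f1 transcripts and of Nr2f2-201 and Nr2f2-204, and lies within the first intron of Nr2f2-202.

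Promoter sequences of 3 members are given to show the range of CpG content among them, a feature that the choice of members did not use. Each is the 250 bases before the RefSeq start on the gene's own strand (GRCm38.p6, 5′ to 3′), and capitals mark CG pairs, of which the Nr2f1 sequence has 22, the Nr2f6 sequence 42 and the Nr1i2 sequence 2. The RefSeq start of Nr2f1 used here is not that of Nr2f1-201.
Nr2f1, chr13:78198874-78199123, minus strand: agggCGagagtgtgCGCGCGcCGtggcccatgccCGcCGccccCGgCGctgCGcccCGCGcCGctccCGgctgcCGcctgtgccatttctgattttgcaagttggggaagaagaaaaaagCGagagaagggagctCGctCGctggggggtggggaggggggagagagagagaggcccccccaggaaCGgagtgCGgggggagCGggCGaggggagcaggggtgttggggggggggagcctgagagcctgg
Nr2f6, chr8:71381953-71382202, minus strand: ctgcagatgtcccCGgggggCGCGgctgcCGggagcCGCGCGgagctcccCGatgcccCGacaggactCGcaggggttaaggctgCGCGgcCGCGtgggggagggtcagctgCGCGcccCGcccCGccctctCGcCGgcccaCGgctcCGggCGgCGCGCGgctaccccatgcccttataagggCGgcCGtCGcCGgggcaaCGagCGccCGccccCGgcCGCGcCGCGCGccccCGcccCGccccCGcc
Nr1i2, chr16:38294825-38295074, minus strand: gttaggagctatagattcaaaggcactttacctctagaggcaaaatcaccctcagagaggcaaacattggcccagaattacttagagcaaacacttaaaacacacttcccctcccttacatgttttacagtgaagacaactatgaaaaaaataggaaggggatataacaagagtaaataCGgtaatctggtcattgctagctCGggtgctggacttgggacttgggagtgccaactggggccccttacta
Nr2f1 and Nr2f6 were measured in both samples, whereas Nr1i2, the pregnane X receptor of liver and gut, was listed at 0 in both. Of the 20 members above 0.5 FPKM in either sample, 18 had a RefSeq promoter window of 300 bases, with a median of 21.5 CG pairs in the richest window of each gene (range 2 to 53), and 13 of them (72.2%) had 15 or more. Of the 15 members at 0 in both samples, 13 had a window, with a median of 7 (range 2 to 44), and 3 of them (23.1%) had 15 or more, among them Pparg with 44. Over all 27025 genes with a window the median was 8 and the share with 15 or more was 37.1%. Nr2f2 was the member with the fewest among those expressed, with 2 CG pairs in the single window held for it, which lies at the distal start of Nr2f2-202 and not at that of Nr2f2-201.

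FPKM scales the fragments of a gene by transcript length and sequencing depth and is therefore a level per length, so that levels can be set side by side between genes. Genes above 0.5 FPKM in both samples are called measured, and genes with a log2 ratio of Aldh1a2-/- over wild-type below -0.85 or above 0.85 are called lower or higher, the floor and cutoffs being those of the study. The FPKM summed to 759577 in Aldh1a2-/- and 846496 in wild-type trunk. Taking the lowest values as 1 fragment each, the depth was estimated at about 29100000 fragments in Aldh1a2-/- and 28100000 fragments in wild-type. The values used had to lie in a range fixed beforehand, which limits the depth that can result. Fragment numbers given below are therefore approximate. Aldh1a2 itself was at 11.7 FPKM in Aldh1a2-/- and 128 FPKM in wild-type trunk, lower in the sample labelled as its knockout. Values of 0 are given as listed at 0 and without a fold, because 3 of 77 mitochondrial ribosomal protein genes, which cells of all kinds use, were above 1 FPKM in 1 sample and listed at 0 in the other.

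Of the 39 members, 14 were above 0.5 FPKM in Aldh1a2-/- and 17 in wild-type trunk, 20 in at least 1 of them, and 11 were measured. Among those 11, the lower members were 6: the 3 COUP-TF genes Nr2f1, Nr2f2 and Nr2f6, the testicular receptor genes Nr2c1 and Nr2c2, and the liver X receptor gene Nr1h2. The higher members were 4: Ppard, Esrra, Thra and Vdr, which encode receptors for fatty acids, thyroid hormone and vitamin D and an orphan regulator of mitochondrial genes. Nr6a1 alone lay within the cutoffs. Of all 9506 measured genes 22% were lower, 23.6% were higher and 45.6% were past either cutoff, while of the measured members 10 (90.9%) were. The members' log2 ratios had a median of -1.63 and ran from -2.55 to 3.68, beside a median of 0.02 over all measured genes. The members' median depends on which are included, and was -0.45 with no floor, with a floor of 5 FPKM or without Nr2f1 and Nr2f2, and -1.04 with a floor of 0.1 FPKM.

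Ratios of weakly expressed genes spread more widely, so the members were also read against genes of similar level. Among measured genes with a mean of 1 to 5 FPKM 62.8% were past either cutoff, and so were 3 of 3 members of that level, Esrra, Vdr and Nr2c2. With a mean of 5 to 50 FPKM it was 47.8% of genes and 7 of 8 members. The lowest member ratio, that of Nr2f6, had 3.94% of measured genes below it and the highest, that of Ppard, had 98.6% below it.

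**Figure D2:**
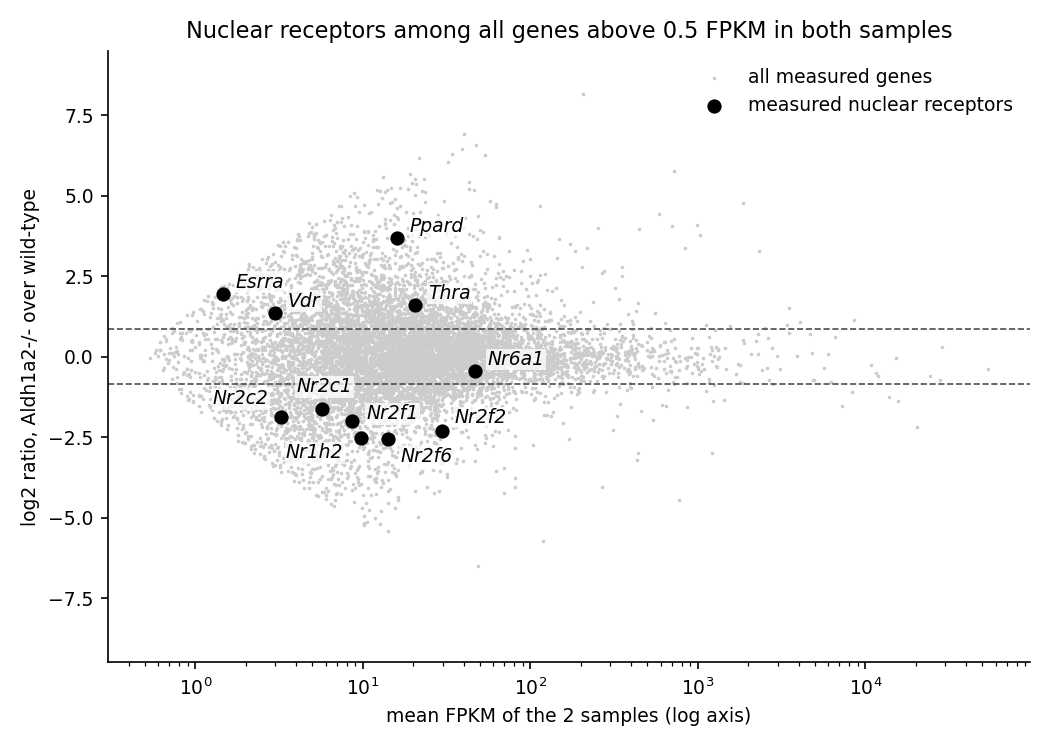
Log2 ratio of Aldh1a2-/- over wild-type FPKM (vertical axis) against the mean FPKM of both samples (horizontal log axis) for all 9506 measured genes (grey) and the 11 measured nuclear receptors (black, named), with dashed lines at -0.85 and 0.85. Ppard lies highest at 3.68, Nr2f6 lowest at -2.55, and Nr6a1 is the member between the lines.

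The members together carried 136 FPKM in Aldh1a2-/- and 213 FPKM in wild-type trunk. Nr6a1 and Nr2f2 supplied 36.3% of that sum in Aldh1a2-/- and 48.6% in wild-type. By subfamily, the NR2 members, which do not include Hnf4a or the RXR genes, summed to 21.6 FPKM in Aldh1a2-/- against 101 FPKM in wild-type. All 5 measured NR2 members were lower. The NR1 genes went the other way as a sum, with 69.6 FPKM in Aldh1a2-/- against 49.6 FPKM in wild-type, and of 4 measured 3 were higher and 1 was lower. Most of the NR1 sum in Aldh1a2-/- came from Thra and Ppard.

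**Figure D3:**
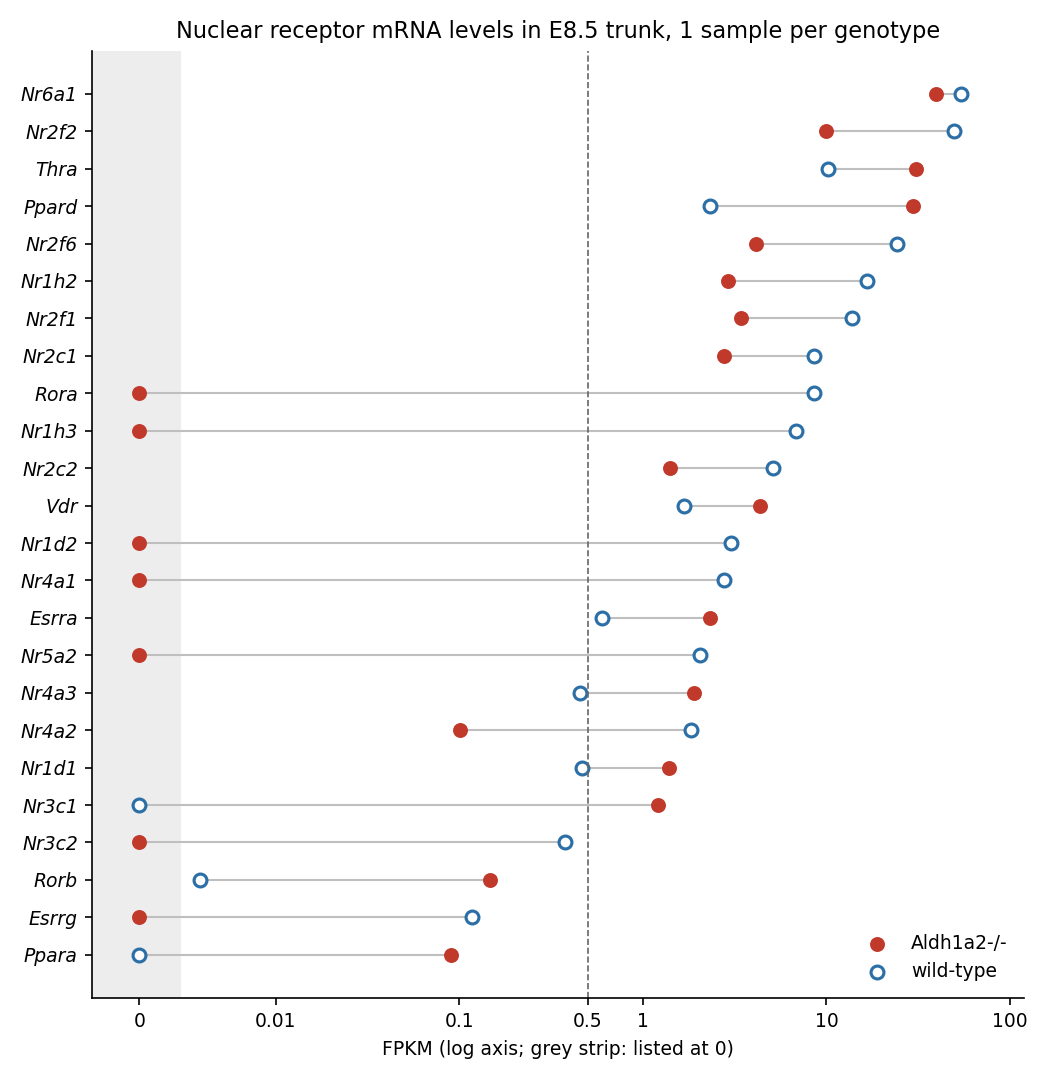
FPKM (log axis, with values listed at 0 in the grey strip) of the 24 nuclear receptor genes above 0 in at least 1 sample, filled red for Aldh1a2-/- and open blue for wild-type, with a dashed line at 0.5 FPKM. Nr6a1 is highest in both samples, Ppard shows the widest gap among genes above 0.5 FPKM in both, and 5 genes above 0.5 FPKM in wild-type have their Aldh1a2-/- value in the strip.

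The COUP-TF genes encode orphan receptors that mostly repress transcription and act in mesoderm, heart, vessels and the nervous system. Nr2f2, which encodes COUP-TFII, a receptor of mesenchyme and veins, was at 9.90 FPKM in Aldh1a2-/- and 49.3 FPKM in wild-type trunk, a log2 ratio of -2.32 (chr7:70351944-70366735, minus strand, mm10). It ranked 4 among the members in Aldh1a2-/- and 2 in wild-type, and 45.9% of detected genes lay below it in Aldh1a2-/- against 86.5% in wild-type. Nr2f1, encoding COUP-TFI, which patterns the forebrain and the eye, was at 3.41 FPKM in Aldh1a2-/- and 13.8 FPKM in wild-type (-2.02; chr13:78188973-78199757, minus strand). Nr2f6, encoding the related receptor EAR2, is not listed by the study as nearest gene to an element. It was at 4.13 FPKM in Aldh1a2-/- and 24.2 FPKM in wild-type (-2.55; chr8:71374123-71381960, minus strand). All 3 genes were lower, and the part of the listed DR1 element in these values was not tested.

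Summed over the 3 genes, COUP-TF mRNA was at 17.4 FPKM in Aldh1a2-/- and 87.3 FPKM in wild-type trunk, a log2 ratio of -2.32. Nr2f2 made up 56.8% of that sum in Aldh1a2-/- and 56.5% in wild-type. The share of Nr2f1 was 19.5% in Aldh1a2-/- and 15.8% in wild-type, and that of Nr2f6 was 23.7% in Aldh1a2-/- and 27.7% in wild-type. Reads can be placed on each gene apart from the others, since no window of 75 bases, the read length, is shared between transcripts of the 3 genes. Nr2f6 does overlap Ocel1 on the opposite strand over 1622 bp, 54.4% of its exon bases, and whether the counting used strand is not given in the sources used here. Ocel1 was at 5.87 FPKM in Aldh1a2-/- and 3.54 FPKM in wild-type, with its higher value in Aldh1a2-/-.

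Nr2c1 and Nr2c2 encode TR2 and TR4, orphan receptors that bind DR1 elements as a pair and, in red blood cell precursors, repress embryonic globin genes. Nr2c1 was at 2.78 FPKM in Aldh1a2-/- and 8.56 FPKM in wild-type trunk (log2 ratio -1.63; chr10:94148023-94197211, plus strand). Nr2c2 was at 1.40 FPKM in Aldh1a2-/- and 5.11 FPKM in wild-type (-1.87; chr6:92091390-92174294, plus strand). Both partners were thus lower. Nr2c2 shares 4590 bp, 30.7% of its exon bases, with Mrps25 on the opposite strand, which was at 22.0 FPKM in Aldh1a2-/- and 22.6 FPKM in wild-type. The other NR2 members, Nr2e1 (TLX, of neural stem cells), Nr2e3 (of photoreceptors) and Hnf4g (of gut epithelium), were listed at 0 in both samples.

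Liver X receptors sense oxysterols and pair with RXR to switch on genes of cholesterol export and fatty acid synthesis. Nr1h2, encoding the broadly expressed LXRβ, was at 2.91 FPKM in Aldh1a2-/- and 16.6 FPKM in wild-type trunk, a log2 ratio of -2.51 (chr7:44549616-44553951, minus strand). Nr1h3, encoding LXRα, was listed at 0 in Aldh1a2-/- and was at 6.81 FPKM in wild-type, a level that stands for about 320 to 370 fragments by the length of its coding transcripts. Both liver X receptor genes had their higher value in wild-type. Of 12 liver X receptor targets 8 were measured, 6 of them higher and none lower (median log2 ratio 1.30), and Lpl, a lipase gene, was listed at 0 in Aldh1a2-/- and was at 4.12 FPKM in wild-type. Apoe, apolipoprotein E, was at 1921 FPKM in Aldh1a2-/- and 140 FPKM in wild-type (3.78). Scd2, a fatty acid desaturase gene, was at 111 FPKM in Aldh1a2-/- and 138 FPKM in wild-type (-0.32), within the cutoffs. The ratio of Nr1h2 and the median of the measured targets thus lay on opposite sides of 0.

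PPARδ, encoded by Ppard, is a fatty acid receptor of many tissues that drives fatty acid oxidation with RXR. Ppard was at 29.8 FPKM in Aldh1a2-/- and 2.33 FPKM in wild-type trunk, 12.8-fold higher in Aldh1a2-/- (log2 ratio 3.68; chr17:28232700-28301474, plus strand). It ranked 3 among the members in Aldh1a2-/- and 13 in wild-type, and 73.8% of detected genes lay below it in Aldh1a2-/- against 23.0% in wild-type. Fragment numbers were taken from the estimated depth and the shortest and longest coding transcript. The levels of Ppard then stand for about 830 to 2800 fragments in Aldh1a2-/- and 63 to 210 fragments in wild-type. By that estimate neither value rests on a few reads. The table assigns Ppard to a joint locus on chromosome 17 (28127351 to 28301469 of mm10) together with Scube3, Def6 and Zfp523, although no window of 75 bases of its transcripts occurs in another gene. Those neighbors had their higher value in wild-type: Scube3 was at 3.21 FPKM in Aldh1a2-/- and 14.7 FPKM in wild-type, Zfp523 at 3.78 FPKM in Aldh1a2-/- and 6.86 FPKM in wild-type, and Def6 was listed at 0 in Aldh1a2-/- and at 8.06 FPKM in wild-type. Whether reads were exchanged within that locus was not tested.

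The other PPAR genes were near or at 0. Ppara, the PPAR of liver fasting, was at 0.0900 FPKM in Aldh1a2-/- and listed at 0 in wild-type, and Pparg, the PPAR of fat cells, was listed at 0 in both. Of 20 PPAR targets of fatty acid use 12 were measured, 8 of them higher and 1 lower (median log2 ratio 1.75). A further 3, Acadvl, Fabp3 and Fabp4, were above 0.5 FPKM in Aldh1a2-/- and listed at 0 in wild-type, while Angptl4 was listed at 0 in Aldh1a2-/- and was at 1.05 FPKM in wild-type. Among the most abundant, the mitochondrial carrier gene Ucp2 was at 73.4 FPKM in Aldh1a2-/- and 13.1 FPKM in wild-type (2.49), and Acadm, an enzyme of fatty acid oxidation, at 54.2 FPKM in Aldh1a2-/- and 19.3 FPKM in wild-type (1.49). Both are among the higher genes.

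Thra encodes the thyroid hormone receptor TRα, the form present earliest and most widely, which represses its targets with corepressors when no hormone is bound. It was at 31.0 FPKM in Aldh1a2-/- and 10.2 FPKM in wild-type trunk (log2 ratio 1.60; chr11:98740638-98769006, plus strand) and ranked 2 among the members in Aldh1a2-/- and 6 in wild-type. Thrb, its paralog of liver, retina and inner ear, was listed at 0 in both samples. Thra overlaps the clock receptor gene Nr1d1 tail to tail on the opposite strand over 263 bp, and Nr1d1 was at 1.39 FPKM in Aldh1a2-/- and 0.465 FPKM in wild-type. Both genes of that pair had their higher value in Aldh1a2-/-. Of 11 genes of thyroid hormone handling and response 3 were measured and all 3 were higher (median 2.76). The carrier protein gene Ttr was at 611 FPKM in Aldh1a2-/- and 89.2 FPKM in wild-type. The transporter gene Slc16a10 was at 8.19 FPKM in Aldh1a2-/- and 1.21 FPKM in wild-type, and the hormone-inactivating deiodinase gene Dio3 at 5.04 FPKM in Aldh1a2-/- and 0.855 FPKM in wild-type. Klf9, a target gene, was at 5.06 FPKM in Aldh1a2-/- and 0.216 FPKM in wild-type, while Hr, also a target gene, was listed at 0 in Aldh1a2-/- and was at 1.12 FPKM in wild-type.

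Vdr, the vitamin D receptor gene, was at 4.32 FPKM in Aldh1a2-/- and 1.68 FPKM in wild-type trunk (log2 ratio 1.36; chr15:97854425-97910630, minus strand). It ranked 5 among the members in Aldh1a2-/- and 16 in wild-type. The bile acid and xenobiotic receptors that share its subfamily, Nr1h4 (FXR), Nr1i2 (PXR) and Nr1i3 (CAR), were listed at 0 in both samples. Nr1i3 shares 74.9% of its exon bases with Tomm40l on the opposite strand and a table locus with Apoa2, which was at 408 FPKM in Aldh1a2-/- and 1.42 FPKM in wild-type, and whether reads were assigned away from Nr1i3 there was not tested. Of 14 genes that these receptors control 10 were listed at 0 in both samples. Fgf15, the hormone of bile acid feedback and also a growth factor of the embryonic nervous system, was the only measured one, at 43.6 FPKM in Aldh1a2-/- and 14.3 FPKM in wild-type (1.61). Abcc2, an export pump, was at 20.3 FPKM in Aldh1a2-/- and 0.441 FPKM in wild-type, and the bile acid transporter gene Slc10a1 was at 6.72 FPKM in Aldh1a2-/- and listed at 0 in wild-type. Cyp27a1, a sterol hydroxylase gene, was at 1.18 FPKM in Aldh1a2-/- and listed at 0 in wild-type.

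The estrogen-related receptors are orphans that bind TCAAGGTCA as monomers and, in the case of ERRα, govern mitochondrial genes. Esrra was at 2.32 FPKM in Aldh1a2-/- and 0.601 FPKM in wild-type trunk (log2 ratio 1.95; chr19:6910977-6921813, minus strand), and the wild-type value lies just above the floor, standing for about 6 to 38 fragments. Esrrg, encoding ERRγ of heart and kidney, was listed at 0 in Aldh1a2-/- and was at 0.117 FPKM in wild-type, and Esrrb, the ERRβ gene of stem cells and placenta, was listed at 0 in both. Among the steroid receptors, Nr3c1, the glucocorticoid receptor gene, was at 1.21 FPKM in Aldh1a2-/- and listed at 0 in wild-type. Nr3c2, the mineralocorticoid receptor gene, was listed at 0 in Aldh1a2-/- and was at 0.375 FPKM in wild-type. The receptors of sex steroids, Esr1, Esr2 and Pgr, were listed at 0 in both samples. The highest value among the steroid and estrogen-related receptor genes was thus the 2.32 FPKM of Esrra in Aldh1a2-/-.

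Of 12 glucocorticoid receptor targets 9 were measured, 6 of them higher and 2 lower (median log2 ratio 1.01). The metallothionein gene Mt1, which metals also induce, was at 317 FPKM in Aldh1a2-/- and 28.1 FPKM in wild-type trunk (3.50). Ddit4, an inhibitor of mTOR that low oxygen also induces, was at 27.4 FPKM in Aldh1a2-/- and 2.72 FPKM in wild-type (3.33), and Tsc22d3, which encodes GILZ, at 19.4 FPKM in Aldh1a2-/- and 10.3 FPKM in wild-type (0.91). Fkbp5, the chaperone gene most used as a readout of this receptor, was lower, at 8.61 FPKM in Aldh1a2-/- and 20.1 FPKM in wild-type (-1.22).

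Nr6a1 encodes germ cell nuclear factor, an orphan repressor that binds a direct repeat without a spacer. It had the highest level of all members in both samples, 39.6 FPKM in Aldh1a2-/- and 54.1 FPKM in wild-type trunk, with a log2 ratio of -0.45 inside the cutoffs (chr2:38723370-38927688, minus strand). Its target Pou5f1, which encodes OCT4, was at 16.8 FPKM in Aldh1a2-/- and listed at 0 in wild-type, and Nanog was at 2.52 FPKM in Aldh1a2-/- and listed at 0 in wild-type. Utf1, a further pluripotency gene, went the other way, listed at 0 in Aldh1a2-/- and at 1.87 FPKM in wild-type. Nr5a2, encoding LRH-1, which can activate Pou5f1 in epiblast cells, was listed at 0 in Aldh1a2-/- and was at 2.05 FPKM in wild-type, and Nr5a1 (SF1, of adrenal gland and gonad) was listed at 0 in both. Of 18 pluripotency genes 8 were measured, 2 of them higher and none lower (median log2 ratio 0.50). The most abundant of them, Lin28a, an RNA-binding protein gene that keeps let-7 microRNAs low, was at 320 FPKM in Aldh1a2-/- and 216 FPKM in wild-type (0.56). Lin28b, its paralog, was at 39.5 FPKM in Aldh1a2-/- and 46.4 FPKM in wild-type (-0.23).

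The circadian receptors link lipid metabolism to the daily clock. RORα and the REV-ERBs compete for the same elements, the first as activator and the others as repressors. Rora was listed at 0 in Aldh1a2-/- and was at 8.51 FPKM in wild-type trunk, which stands for about 620 to 2600 fragments, the highest wild-type level among the members listed at 0 in Aldh1a2-/-. Nr1d2, encoding REV-ERBβ, was listed at 0 in Aldh1a2-/- and was at 3.01 FPKM in wild-type. Nr1d1, encoding REV-ERBα, went the other way, as given above beside Thra, and Rorb, a receptor gene of retina and brain, was at 0.147 FPKM in Aldh1a2-/- and 0.00386 FPKM in wild-type. The 4 genes together were at 1.54 FPKM in Aldh1a2-/- and 12.0 FPKM in wild-type. Of 17 other clock genes 12 were measured, 2 of them higher and 3 lower (median log2 ratio 0.17), and Ciart, a repressor gene of the clock, was listed at 0 in Aldh1a2-/- and was at 14.5 FPKM in wild-type. The kinase gene Csnk1e, whose product marks PER proteins for degradation, was at 48.9 FPKM in Aldh1a2-/- and 44.2 FPKM in wild-type. Its relative Csnk1d was at 37.9 FPKM in Aldh1a2-/- and 33.2 FPKM in wild-type, and both lay within the cutoffs. Cry2 was higher, at 20.1 FPKM in Aldh1a2-/- and 6.11 FPKM in wild-type (1.72). Nfil3 was lower, at 9.36 FPKM in Aldh1a2-/- and 19.3 FPKM in wild-type (-1.05).

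The NR4A receptors are orphans made within minutes of a stimulus, as immediate early genes are. Nr4a1, encoding NUR77, was listed at 0 in Aldh1a2-/- and was at 2.77 FPKM in wild-type trunk. Nr4a2, encoding NURR1 of dopamine neurons, was at 0.101 FPKM in Aldh1a2-/- and 1.82 FPKM in wild-type. Nr4a3, encoding NOR1, had its higher value in Aldh1a2-/-, 1.91 FPKM, against 0.456 FPKM in wild-type. None of the 3 was above the floor in both samples, so none has a ratio, and they did not share a direction. Of 20 immediate early genes 9 were measured, 2 of them higher and 2 lower (median log2 ratio 0.44). A further 5, among them Fos, were above 0 in wild-type only and 2, Junb and Zfp36, in Aldh1a2-/- only. Ier2, the most abundant in wild-type, was at 8.20 FPKM in Aldh1a2-/- and 31.1 FPKM in wild-type, and Klf6, a zinc finger gene and the most abundant in Aldh1a2-/-, at 25.8 FPKM in Aldh1a2-/- and 13.5 FPKM in wild-type.

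Listed at 0 in Aldh1a2-/- and above 0.5 FPKM in wild-type were 5 of 17 members: Rora, Nr1h3, Nr1d2, Nr4a1 and Nr5a2. Over all genes above 0.5 FPKM in wild-type trunk the share at 0 in Aldh1a2-/- was 12.9%, and over genes at 1 to 10 FPKM in wild-type, where all 5 lie, it was 21.3%, beside 5 of 10 members. In the other direction 1 of 14 members, Nr3c1, was listed at 0 in wild-type, beside 6.14% of all genes above 0.5 FPKM in Aldh1a2-/-. The 15 members listed at 0 in both samples were 38.5% of the 39, beside 45.3% of all genes of the table. Besides those named above, they were Nr0b1 (DAX1) and Nr0b2 (SHP), which lack a zinc finger domain and repress other receptors.

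Coactivators and corepressors serve nuclear receptors in common, by opening or closing chromatin where a receptor is bound. Of 24 such genes 21 were measured, of which 3 were lower, 1 was higher and 17 lay within the cutoffs, with a median log2 ratio of 0.06. The arginine methyltransferase gene Carm1 was at 92.3 FPKM in Aldh1a2-/- and 88.9 FPKM in wild-type trunk, and Gps2, a subunit of the NCoR complex, at 84.0 FPKM in Aldh1a2-/- and 92.7 FPKM in wild-type. As a sum these genes were at 733 FPKM in Aldh1a2-/- and 746 FPKM in wild-type, whereas the receptors were at 136 FPKM in Aldh1a2-/- and 213 FPKM in wild-type. Most measured coregulator genes were thus within the cutoffs and most measured receptor genes were not. Of all measured genes 45.6% were past either cutoff. The sets were not matched for level, and ratios of weakly expressed genes spread more widely.

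**Figure D4:**
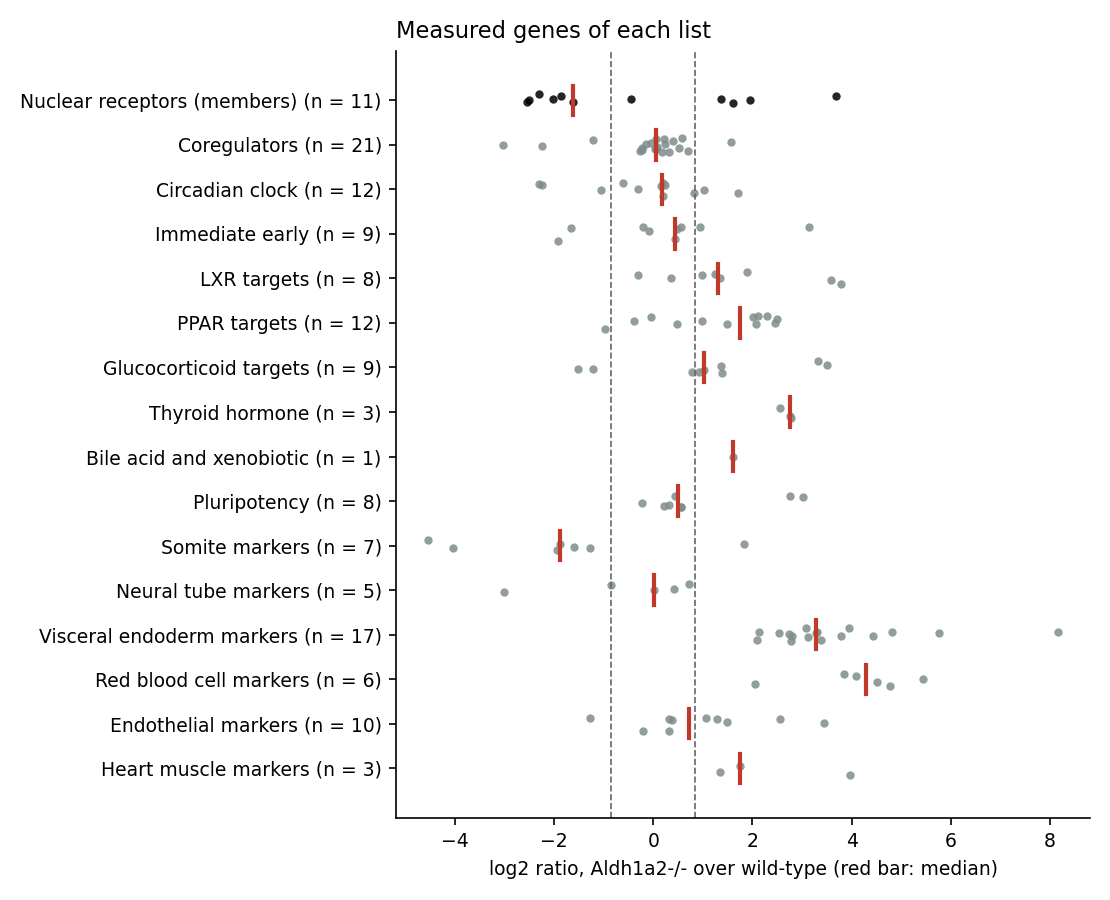
Log2 ratio of Aldh1a2-/- over wild-type FPKM for each measured gene of the nuclear receptors (black, top) and of the 15 other lists (grey), with a red bar at the median and dashed lines at -0.85 and 0.85. The receptors have a median of -1.63 with points on both sides, the coregulators gather near 0, and the visceral endoderm and red blood cell markers all lie above 0.85.

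Markers of other cell types also differed between the samples, and in bulk samples fewer cells of a type and less RNA per cell cannot be told apart. Markers of the yolk sac visceral endoderm, an absorptive epithelium of lipid transport, were higher for 17 of 17 measured genes (median 3.28), with a sum of 7646 FPKM in Aldh1a2-/- and 583 FPKM in wild-type. Of the 19 in the table, Amn was listed at 0 in wild-type and Serpina1a in both. Apoa1, an apolipoprotein gene, was at 1520 FPKM in Aldh1a2-/- and 146 FPKM in wild-type. This list moved in the direction of Ppard, Thra, Vdr and Esrra and of the liver X receptor, PPAR, thyroid hormone, glucocorticoid and bile acid lists, of which Ttr is itself an endoderm marker, and its part in their ratios was not tested. Markers of primitive red blood cells were higher for 6 of 6 measured genes (median 4.30), with a sum of 5872 FPKM in Aldh1a2-/- and 301 FPKM in wild-type and with Gata1 listed at 0 in wild-type. Hba-x, an embryonic globin gene, was at 3592 FPKM in Aldh1a2-/- and 131 FPKM in wild-type.

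Somite markers, which define the labelled trunk, were lower for 6 of 7 measured genes and higher for Myf5 (median -1.89), with a sum of 67.2 FPKM in Aldh1a2-/- and 350 FPKM in wild-type. Tcf15 was at 9.35 FPKM in Aldh1a2-/- and 154 FPKM in wild-type, and Meox1 at 28.6 FPKM in Aldh1a2-/- and 106 FPKM in wild-type. Tbx18 was listed at 0 in Aldh1a2-/-, Pax1 and Ripply1 in wild-type and Pax9 in both. This list moved in the direction of the COUP-TF genes, Nr2c1, Nr2c2 and Nr1h2, and its part in their ratios was not tested. Neural tube markers, of which 5 were measured, 2 lower and none higher (median 0.02), summed to 48.0 FPKM in Aldh1a2-/- and 70.6 FPKM in wild-type. The lower ones were Pax6, at 1.76 FPKM in Aldh1a2-/- and 14.3 FPKM in wild-type (-3.02), and Sox2, at 10.9 FPKM in Aldh1a2-/- and 19.8 FPKM in wild-type (-0.86). Irx3, within the cutoffs, was at 26.2 FPKM in Aldh1a2-/- and 19.7 FPKM in wild-type. Olig2 and Nkx6-1 were listed at 0 in Aldh1a2-/- and Nkx6-2, Dbx1 and Dbx2 in both. Both trunk lists were thus detected in both samples.

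Endothelial markers, the setting of Nr2f2 in veins, were higher for 5 and lower for 1 of 10 measured genes (median 0.72), with a sum of 113 FPKM in Aldh1a2-/- and 78.3 FPKM in wild-type. Kdr was at 19.5 FPKM in Aldh1a2-/- and 22.5 FPKM in wild-type, while Emcn and Esam were listed at 0 in Aldh1a2-/- and Sox18 in wild-type. The endothelial sum was larger in Aldh1a2-/-, where Nr2f2 was lower, and its part in the ratio of Nr2f2 was not tested. Heart muscle markers, of a tissue removed in dissection, were higher for 3 of 3 measured genes (median 1.75), with a sum of 94.6 FPKM in Aldh1a2-/- and 28.3 FPKM in wild-type. Tnnc1 was at 39.2 FPKM in Aldh1a2-/- and 2.51 FPKM in wild-type. Myl4 was listed at 0 in Aldh1a2-/-, Myl7 in wild-type and Nkx2-5 in both. Genes without a ratio did not share a direction. Actc1 was at 0.0531 FPKM in Aldh1a2-/- and 6.13 FPKM in wild-type. Tnni1 was at 13.4 FPKM in Aldh1a2-/- and 0.436 FPKM in wild-type, and Ryr2 at 1.89 FPKM in Aldh1a2-/- and 0.0219 FPKM in wild-type.

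The ratio of each measured member was recomputed under other floors, pseudocounts and scalings. All 90 values so obtained stayed on the side of the cutoffs given above. A floor alone cannot alter a ratio, and a scaling shifts all ratios by the same amount. Only the pseudocounts changed members by different amounts. With cutoffs of -1 and 1 the counts stayed at 6 lower and 4 higher. The log2 ratio of Nr2f2 ran from -2.42 to -2.16, that of Ppard from 3.21 to 3.84 and that of Nr6a1 from -0.55 to -0.30. The widest range was that of Esrra, 1.05 to 2.11, whose wild-type level is the lowest of the measured members. The nearest approach to a cutoff from outside was that of Vdr at 0.99.

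**Figure D5:**
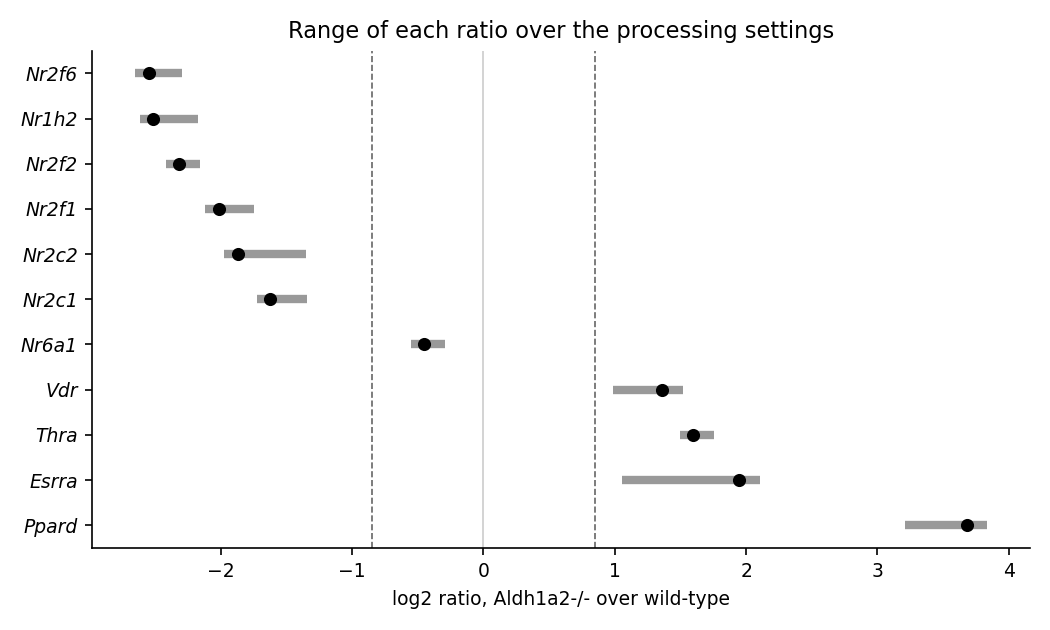
Log2 ratio of Aldh1a2-/- over wild-type FPKM of the 11 measured nuclear receptors (point) with its lowest and highest value over the other processing settings (bar), and dashed lines at -0.85 and 0.85. No bar crosses a dashed line, and Esrra has the longest bar, 1.05 to 2.11.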

How the data were processed

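RNA-seq of E8.5 trunk was compared between 1 Aldh1a2-/- and 1 wild-type sample, grouped by the genotype in the labels. The authors deposited FPKM values for each gene and sample in 1 table. STAR, Cufflinks and Cuffdiff are named, without versions and on mm10, in the submitters' processing notes, whereas the study's methods name TopHat and, as the differential test, edgeR. The labels describe poly(A) selection with a directional kit and single reads of 75 bases, and the methods a total RNA kit, which bears on transcripts without a poly(A) tail. The authors' own fold changes, p-values and q-values in the table were not used.

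Aldh1a2-/- FPKM were divided by wild-type FPKM and the log2 taken, with no pseudocount, where both values exceeded 0.5 FPKM. No test was possible on 1 sample per genotype. The share of all genes past the same cutoffs was computed as background, and the ratio and counting steps were tested on simulated data. The table holds no counts. Depth was estimated from genes with 1 transcript (16 genes in Aldh1a2-/- and 19 in wild-type). The median product of FPKM and length in kb was taken as 1 fragment. Only products within a narrow range fixed beforehand were used, which limits the depths that could result. Fragment numbers were derived from that depth and the shortest and longest coding transcript in GENCODE M21, whose coordinates are those of mm10. Shared sequence was sought as identical windows of 75 bases among GENCODE transcripts. Element letters and places were read from the study's supplementary list. Promoter windows of RefSeq (GRCm38.p6) matched 35 of 39 members by symbol.

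Named are all members, and of each of 15 other lists up to 4 genes with the highest FPKM in either sample, with some genes listed at 0 and genes overlapping a member named besides. Myf5, Pou5f1, Nanog, Fos, Junb, Zfp36, Acadvl, Fabp3, Fabp4, Angptl4, Lpl, Hr, Utf1, Ciart, Actc1 and Ryr2 lie outside this rule. They were named after their values were seen. A marker of the red blood cell list is not reported here and was left out of its values. The members and lists were chosen with earlier results of these data known. Alternatives were floors of 0.1, 1 and 5 FPKM and none, a floor in either sample with a pseudocount of 0.5, a pseudocount of 1, median centring, the TPM scale, upper quartile scaling, cutoffs of -1 and 1, and leaving out Nr2f1 and Nr2f2. Values were computed in Python 3.11.15 with pandas 2.3.3 and numpy 2.4.6 and plotted with matplotlib 3.10.9.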

Additional observations from a re-analysis of the deposited data

How the results depend on the processing

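No member crossed a cutoff under any alternative in which it was measured, but the counts and the median depend on which members are included. With a floor of 0.1 FPKM the median log2 ratio of the members was -1.04 (7 lower and 6 higher), with 1 FPKM -1.75, and with 5 FPKM -0.45, where only Nr2f2, Nr6a1 and Thra were left, 1 lower and 1 higher. With no floor 7 members were lower and 7 higher, and the median was -0.45. With a floor of 0.5 FPKM in either sample and a pseudocount of 0.5, which brings in members listed at 0, 12 were lower and 7 were higher. The median was -1.34 with a pseudocount of 1, -1.47 on the TPM scale and -1.73 with upper quartile scaling. Without Nr2f1 and Nr2f2, an alternative chosen after seeing the data, it was -0.45 with 4 lower and 4 higher. The TPM scale moved the median of all measured genes to 0.18, with 27.5% of them higher and 19.0% lower, against 21.3% higher and 24.1% lower with upper quartile scaling. No paired analysis was possible because there is 1 sample per genotype, and for the same reason no sample could be left out. Depth limits Esrra, Vdr and the members under 3 FPKM most, and a member listed at 0 is not shown to be absent.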

Other observations

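Motif letters were counted in the promoter windows of 300 bases, on both strands, as a description. The hexamer AGGTCA was in 16.3% of all 32851 windows and in 8 of 48 windows of members, those of Nr0b1, Nr1d2, Nr1h4, Nr5a2, Nr6a1, Pparg and Thrb. The longer TCAAGGTCA, which contains AGGTCA, was in 0.423% of all windows and in none of the members'. The cAMP response element TGACGTCA was in 1.79% of all windows and in those of Nr2e1 and Nr6a1, and the E-box CACGTG in 7.15% of all windows and in those of Esr2, Nr0b2, Nr1i3 and Thrb. The DR1 element shared by Nr2f1 and Nr2f2 was in 0 of 32851 windows, and in both genes it lies outside the window.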
